A study of Mus musculus with 19 samples.

Results

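Mitochondrial carriers of the Slc25a series were followed in hippocampal slices of wild-type mice, at rest and after activation of metabotropic glutamate receptors. Members were all genes whose symbol begins with Slc25a in both deposited count tables, which gave 47 of 20436 genes. Slices that kept area CA3, from male mice aged 28 to 42 days, received 100 µM dihydroxyphenylglycine (DHPG, an agonist of group I metabotropic glutamate receptors) or artificial cerebrospinal fluid as vehicle (basal) for 5 min, and cycloheximide at 100 µg/ml in both groups before freezing. RNA was sequenced from total lysate (basal n = 4, DHPG n = 5), and ribosome-protected fragments (RPFs), the pieces of message shielded from RNase by a translating ribosome, were sequenced from the 80S monosome fraction (basal n = 5, DHPG n = 5). Per the study's methods each replicate pooled slices of several mice, and its RNA and RPF libraries came from the same lysate. The study itself singled out Slc25a23 in part on these libraries, so its values below are not independent evidence of its direction.

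Proteins of the SLC25 family sit mostly in the mitochondrial inner membrane and carry nucleotides, phosphate, amino acids, organic acids, cofactors and metals between cytosol and matrix. Slc25a4 and Slc25a5 exchange ADP for ATP and Slc25a3 imports phosphate, so that together they feed ATP synthase. Slc25a23, Slc25a24 and Slc25a25 exchange ATP-Mg for phosphate and bind calcium through EF-hands on the cytosolic side, whereas their paralog Slc25a41 lacks that calcium-binding part. Carriers of glutamate and aspartate, among them Slc25a12 and Slc25a22, link neuronal energy metabolism to the handling of the transmitter glutamate.

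Paralogous carriers were alike in sequence but could be told apart at footprint length. In the coding sequences of GENCODE M21, Slc25a23 shared 68.5% of aligned bases with Slc25a25, 68.0% with Slc25a41 and 64.1% with Slc25a24, and Slc25a4 shared 77.4% with Slc25a5. The longest run of identical bases was 23 nt between Slc25a23 and Slc25a25 and 20 nt between Slc25a4 and Slc25a5. With 30 nt removed at each end of the coding sequence, 0 windows of 30 nt were held by 2 members. The most similar stretch of each set is printed from GRCm38 (mm10), with capitals at the bases that differ from the first sequence of the set. For the ATP-Mg/phosphate carriers these are coding exon stretches of 60 nt: Slc25a23 at chr17:57045506-57045565 (minus strand, exon 10), Slc25a24 at chr3:109166424-109166483 (plus strand, exon 10, 13 differences) and Slc25a25 at chr2:32416165-32416224 (minus strand, exon 11, 8 differences).
Slc25a23: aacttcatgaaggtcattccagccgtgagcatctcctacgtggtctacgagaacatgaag
Slc25a24: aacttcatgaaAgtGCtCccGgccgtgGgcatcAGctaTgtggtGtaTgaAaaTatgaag
Slc25a25: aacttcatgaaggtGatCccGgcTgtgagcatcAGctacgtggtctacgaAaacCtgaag
For the ADP/ATP carriers they are stretches of 90 nt in exon 2: Slc25a4 at chr8:46209311-46209400 (minus strand) and Slc25a5 at chrX:36796951-36797040 (plus strand, 14 differences).
Slc25a4: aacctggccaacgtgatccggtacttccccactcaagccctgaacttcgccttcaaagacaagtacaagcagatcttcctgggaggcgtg
Slc25a5: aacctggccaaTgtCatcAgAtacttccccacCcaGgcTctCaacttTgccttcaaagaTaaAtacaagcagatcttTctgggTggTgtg

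Other copies in the genome limited some members more than their paralogs did. Of the windows of 30 nt in the trimmed coding sequence, 90.9% for Slc25a5, 77.8% for Slc25a36 and 42.2% for Slc25a40 also lay in other annotated genes (foremost Gm5560, Gm13217 and Gm5066), so the values of these 3 members are uncertain, since the counting kept reads that mapped uniquely. For Slc25a23 the share was 8.8%, in the antisense gene Gm17168, and for Slc25a25 it was 13.7%, in the overlapping gene Naif1. The Slc25a23 gene spans chr17:57043711-57059863 on the minus strand, and its paralog Slc25a41 lies 2056 bases away on the same strand at chr17:57032773-57041654.

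Library totals ran from 4870813 to 7793244 counts for RNA and from 5692064 to 22092434 for RPF. All 10 principal-neuron markers of CA1, CA3 and dentate gyrus reached 1 CPM (counts scaled by library size) in every group. Oligodendrocyte markers varied with the replicate, and their summed RPF level was 4368 CPM in basal replicate 4 against 7840 to 9081 CPM in the other basal replicates. In slices of mixed cells, fewer cells of a type and less RNA per cell cannot be told apart. After a filter on low counts, 40 members were tested in RNA, 39 in RPF and 38 in both, and 6 were tested in neither. Slc25a2, Slc25a41 and Slc25a54 had no RPF count in any of the 10 libraries, a floor of 3 counts in 127427112, or 0.0235 CPM.

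The family was led by the carriers that serve ATP synthesis. The level per length was the CPM divided by kilobases, of coding sequence less 60 nt for RPF and of transcript for RNA. The basal RPF level was 1004 ± 51.0 CPM per kb (SD, n = 5) for Slc25a4, 574 ± 33.4 for Slc25a5 and 512 ± 11.4 for Slc25a3. In the basal libraries 1 to 5, before division by length, Slc25a4 had 841, 767, 839, 859 and 880 CPM and Slc25a5 had 486, 429, 493, 494 and 492 CPM. Slc25a3 had 533, 516, 514, 506 and 530 CPM over a longer coding sequence. Per kb, the 5 basal libraries of Slc25a4 lay above every library of Slc25a5, whereas the ranges of Slc25a5 and Slc25a3 overlapped. The place of Slc25a5 in this order is uncertain, since 90.9% of its windows of 30 nt also lay in other annotated genes. The mitochondrial glutamate carrier Slc25a22 followed at 316 ± 6.72 CPM per kb, clear of its neighbours on both sides. Slc25a12, the calcium-regulated aspartate/glutamate carrier of brain, had 271, 241, 257, 263 and 258 CPM, or 131 ± 5.56 CPM per kb, and the oxoglutarate/malate carrier Slc25a11 had 122 ± 8.57, with overlapping ranges. These 6 members held the top ranks in RPF. From Slc25a14 (72.7 ± 8.26 CPM per kb), related to the uncoupling proteins, through Slc25a23 (71.5 ± 5.59) and Slc25a46 (65.6 ± 0.764), an outer-membrane protein, to the glutamate carrier Slc25a18 (63.6 ± 13.8), each range overlapped the next.

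Some paralogs were far apart in level. The aspartate/glutamate carrier Slc25a13 had 1.10 ± 0.172 CPM per kb in basal RPF, below Slc25a12 in every library. The testis-type ADP/ATP carrier Slc25a31 had between 0 and 5 RPF counts in a basal library. The glutamate carrier Slc25a18 varied between replicates, with 45.0, 54.2, 66.9, 77.9 and 74.1 CPM per kb in basal RPF replicates 1 to 5, and 41.1, 51.2, 64.8, 86.2 and 71.9 after DHPG. Its replicates kept the same order under both treatments. Summed astrocyte markers were also lowest in basal RPF replicate 1 (5965 CPM) but highest in replicate 3 (7131 CPM), and their part in the order was not tested.

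**Figure D1:**
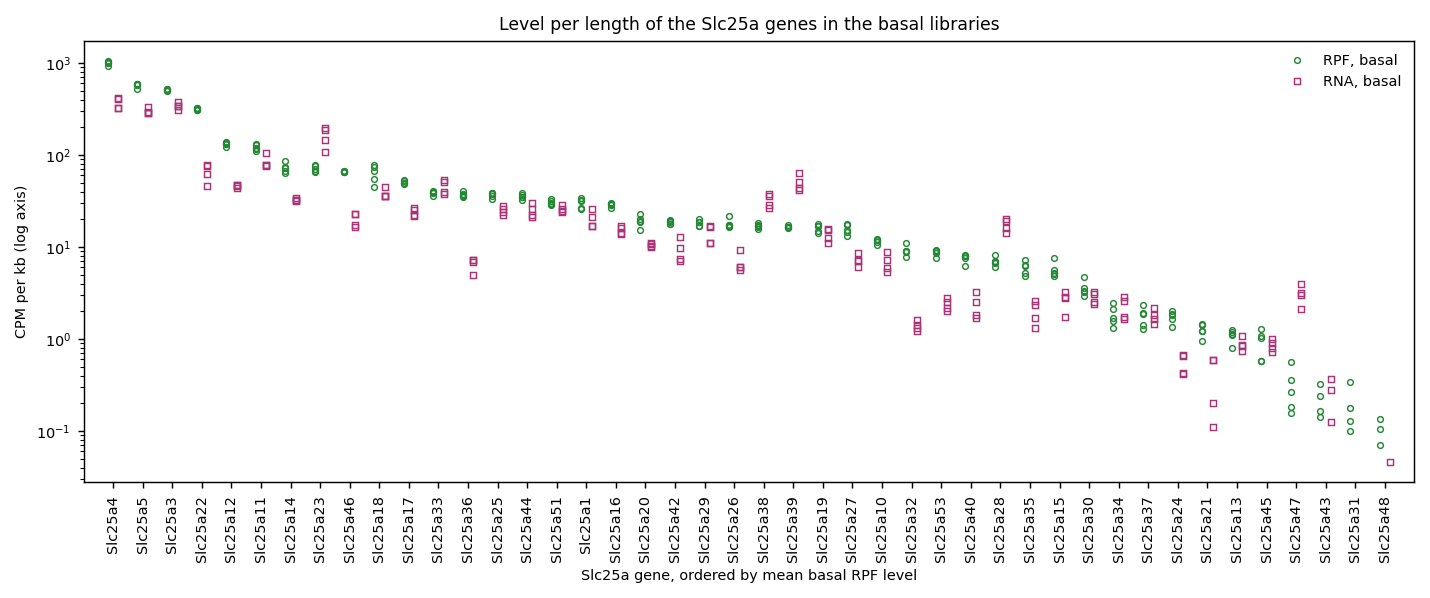
Each point is 1 basal library, and the vertical log axis gives CPM per kb of the RPF (green circles, n = 5) and RNA (purple squares, n = 4) of each Slc25a gene with an RPF count in a basal library; values of 0 are not drawn. Slc25a4 leads RPF in every library and RNA in the mean, where its libraries overlap those of Slc25a3 and Slc25a5. The RNA of Slc25a23, Slc25a39, Slc25a38, Slc25a28 and Slc25a47 sits above its RPF in every library. That of many other members sits below, among them Slc25a4, Slc25a22, Slc25a36 and Slc25a32. The offset between the assays is not set against the median gene here.

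The order in RNA was not the order in RPF, and Slc25a23 differed between them. Its basal RNA level was 159 ± 40.9 CPM per kb (n = 4), rank 4 of the family behind Slc25a4 (369 ± 49.7), Slc25a3 (340 ± 26.5) and Slc25a5 (300.4 ± 22.1), while in RPF it was rank 8. Slc25a39, a glutathione carrier, was rank 7 in RNA (50.1 ± 10.4 CPM per kb) and rank 24 in RPF (16.6 ± 0.607). Slc25a28, one of the mitoferrins that import iron, was rank 19 in RNA (17.3 ± 2.70 CPM per kb) and rank 31 in RPF (6.98 ± 0.747). In the other direction the pyrimidine nucleotide carrier Slc25a36 was rank 28 in RNA (6.61 ± 1.09 CPM per kb) and rank 13 in RPF (37.2 ± 2.15). Summed over the family, basal levels were 3831 ± 226 CPM in RNA and 3252 ± 94.0 CPM in RPF, and after DHPG they were 3832 ± 133 and 3270 ± 133 CPM.

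The ratio of RPF to RNA, a measure of ribosome occupancy per transcript, spread the members widely at rest, from -2.40 to 1.86. It was taken per length in each basal replicate with both libraries (n = 4), on the log2 scale, less the median of all genes. The median of the 38 members was -0.05, with 18 above 0, beside 0.003 for all 12632 genes, of which 50.1% lay above 0. The middle of the family was narrower than that of all genes, with quartiles at -0.48 and 0.59 against -0.92 and 1.01.

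Iron and glutathione carriers had the lowest group median, at -1.51 over 4 members. Slc25a39 had the lowest mean ratio per length of the 38 members tested in both assays. Its values were -2.17, -2.44, -2.88 and -2.13 in replicates 1 to 4 (mean -2.40 ± 0.34, 0.189 times the median gene). Slc25a28 followed with -2.05, -2.05, -2.39 and -2.24 (mean -2.19 ± 0.16). The 2 members stood at percentiles 3.01 and 4.67 of all genes, and their ranges overlapped. Their nearest relatives lay above them. The other glutathione carrier Slc25a40 had 0.85 ± 0.57, from 0.10 to 1.36, and the other mitoferrin Slc25a37 had -0.83 ± 0.52. The order among the lowest members depended on the length correction. Without division by length, Slc25a23 was lowest (-2.26), followed by Slc25a39 (-2.11), Slc25a37 (-1.94), Slc25a51 (-1.88) and Slc25a28 (-1.74), so that the 2 mitoferrins changed places. The glycine carrier Slc25a38, which serves heme synthesis, was also low, at -1.74 ± 0.29. Slc25a47 had too few RPF counts to pass the filter and stands outside this order. Its basal level was 3.07 ± 0.761 CPM per kb in RNA and 0.305 ± 0.163 in RPF, from 2 to 8 RPF counts in a library.

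Slc25a23 had the third lowest mean ratio per length, with a range that overlapped those of Slc25a39, Slc25a28 and Slc25a38. Its 4 values were -1.70, -2.37, -2.39 and -1.34 (mean -1.95 ± 0.52, 0.258 times the median gene, percentile 6.69), with replicate 4 the highest. Its paralogs Slc25a25 (-0.07, -0.38, -0.60 and -0.15, mean -0.30 ± 0.24) and Slc25a24 (0.67, 1.22, 0.34 and 0.58, mean 0.70 ± 0.37) did not overlap it. The ratio of Slc25a24 rests on few reads, 7 to 16 RNA counts and 12 to 50 RPF counts in a basal library. Slc25a23 was lower than Slc25a25 by a mean log2 difference of -1.65 ± 0.34 and lower than Slc25a24 by -2.65 ± 0.71, in 4 of 4 replicates each. The exact two-sided sign-flip test gave p = 0.125 for both, the smallest p that 4 replicates allow. After DHPG the ratio of Slc25a23 was -1.96 ± 0.45 (n = 5), so that its low value was present under both treatments. Replicate 5 has no basal RNA library, so the means at rest and after DHPG do not give the change within pairs. With the replicate as a block, the change in RPF relative to RNA, given below, was -0.15 (SE 0.075).

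The 3 highest ratios belonged to Slc25a32, Slc25a36 and Slc25a22. They did not stand for their groups: the 9 cofactor and nucleotide carriers, with Slc25a32 and Slc25a36 among them, ran from -1.07 to 1.86 with a median of 0.24, and the other glutamate carrier Slc25a18 was at -0.18. Slc25a32, which carries folate and flavin cofactors, had 1.63, 2.30, 1.88 and 1.65 (mean 1.86 ± 0.31, 3.64 times the median gene). Slc25a36, whose values are uncertain because of copies in other genes, had 1.61, 1.66, 1.99 and 1.43 (mean 1.67 ± 0.23). Slc25a22 had 1.48, 1.22, 1.11 and 1.97 (mean 1.45 ± 0.38). All 4 replicates of these 3 members lay above all 4 of Slc25a23, Slc25a28, Slc25a38 and Slc25a39. Both ends of the order were picked by these same replicates, so the separation is a description and not a test. Slc25a32 and Slc25a36 have short coding sequences in long transcripts (16.1% and 17.9% coding, by nucleotides), and without division by length the log2 ratio of their CPM was 0.15 and 0.11. For Slc25a22 it was 0.84.

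**Figure D2:**
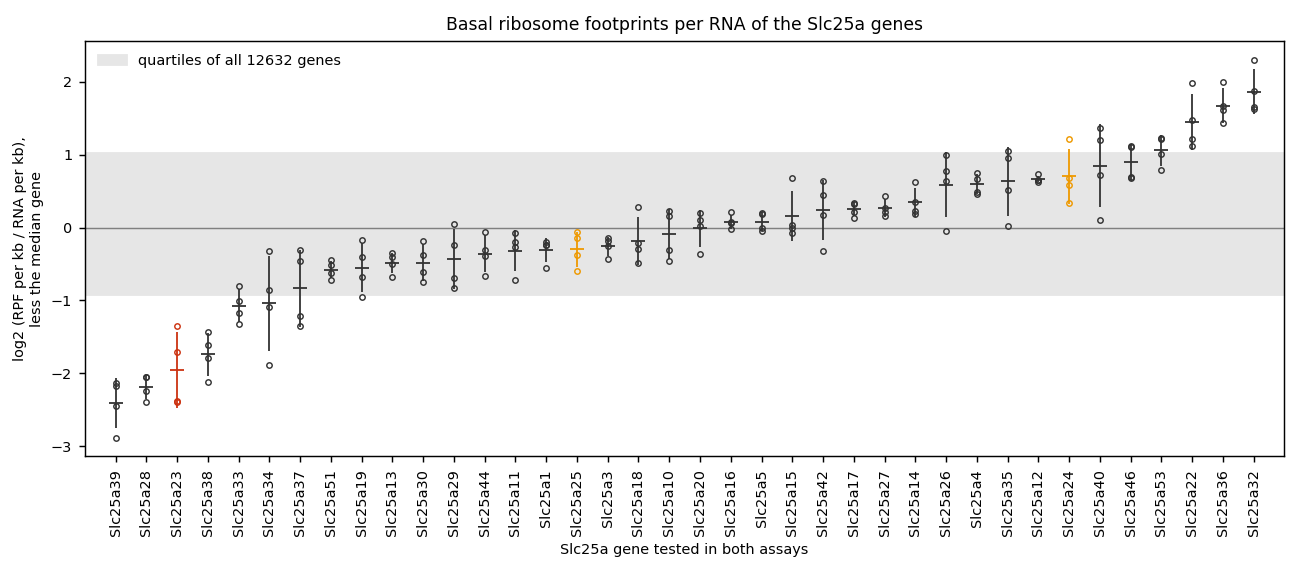
Each circle is 1 basal replicate (n = 4), dashes and bars are the mean and SD, and the vertical axis is the log2 ratio of RPF per kb to RNA per kb less the median gene, with the quartiles of all 12632 genes shaded. Slc25a23 (red) is the third from the left, and its paralogs Slc25a25 and Slc25a24 (orange) lie inside the shaded band apart from 1 replicate of Slc25a24 at 1.22.

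Replicates weighed on these ratios unequally. Replicate 4 gave the highest of the 4 ratios for 23 of the 38 members, and replicate 3 the lowest for 23. The members' median was -0.05, -0.11, -0.31 and 0.06 in replicates 1 to 4. Across the 38 members the ratio correlated with the GC content of the coding sequence at Spearman's rho = -0.53, beside -0.25 for 12632 genes. With the coding share of the transcript it correlated at -0.34 across members and -0.69 across all genes. Both are descriptions over genes that share the same libraries. Of the 4 lowest members, Slc25a39 was 63.9% coding, Slc25a28 71.1%, Slc25a23 41.7% and Slc25a38 54.6%. These 4 ranged from 57.6% to 60.3% GC. Of the 3 highest members, Slc25a22 had 59.1%, Slc25a32 47.6% and Slc25a36 46.0%. The part of GC content or coding share in the ratios was not tested.

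After DHPG no member passed the test in RNA. With edgeR's quasi-likelihood test and the replicate number as a block, 0 of 40 tested members had an adjusted p under 0.01, where the share called of all 12935 genes was 0.00773%. At an unadjusted p under 0.05 there was 1 member, Slc25a23, beside 8.02% of all genes. DESeq2 with the block and DESeq2 after ComBat also called 0 members in RNA, the latter with 22 of the 40 left without an adjusted p. Fold changes were small: the 40 members ran from -0.24 to 0.35 on the log2 scale, with a median of -0.004, a median standard error (SE) of 0.097, and 18 of 40 above 0, where 52.1% of all genes were above 0. The sign was shared by all 4 pairs in 6 members, beside 15.6% of all genes.

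Slc25a23 had the smallest unadjusted p of the family in RNA. Its basal RNA level was 485, 655, 635 and 362 CPM in replicates 1 to 4, and after DHPG it was 545, 656, 716, 460 and 342 CPM in replicates 1 to 5. All 4 pairs were higher after DHPG, replicate 2 by under 1 CPM, and the groups overlapped. The lowest value of all was DHPG replicate 5, which has no basal partner. The log2 fold change was 0.17 (SE 0.068, edgeR adjusted p = 0.56), and without replicate 4 it was 0.11. DESeq2 after ComBat, close to the study's own method, gave an adjusted p of 0.015, above the threshold of 0.01. Without the replicate block the log2 fold change fell to 0.03.

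Principal-neuron markers moved with Slc25a23 between replicates, and they were not alone in this. Their summed RNA level was 4232, 5401, 6083 and 3660 CPM in basal replicates 1 to 4 and 4630, 5396, 6079, 4330 and 4079 CPM after DHPG, so the marker sum and Slc25a23 were both low in basal replicate 4 and in DHPG replicate 5. Within pairs the marker sum was higher after DHPG in replicates 1 and 4 and slightly lower in replicates 2 and 3. Oligodendrocyte markers were higher after DHPG in 4 of 4 RNA pairs, as Slc25a23 was, with sums of 4599, 5484, 5585 and 2638 CPM at rest and 4990, 6390, 6011 and 3046 CPM after DHPG, and were also lowest in replicate 4. Thalamus markers were higher in 4 of 4 pairs too, from 179, 177, 162 and 198 CPM to 197, 227, 193 and 232 CPM. In DHPG replicate 5 the oligodendrocyte sum was 4589 CPM. Astrocyte sums (5255, 5529, 5500 and 5127 CPM) and microglia sums (761, 861, 949 and 638 CPM) were also lowest in basal RNA replicate 4. Those of interneurons, endothelial cells, choroid plexus and thalamus were not. The part of these cell types in the Slc25a23 values was not tested.

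RPFs of Slc25a23 showed little change after DHPG. The basal RPF level was 106, 89.5, 88.4, 101 and 94.3 CPM in replicates 1 to 5, and after DHPG it was 103, 105, 87.8, 92.5 and 96.4 CPM. The groups overlapped almost wholly, and the spread between replicates was narrower than in RNA. The log2 fold change in RPF was 0.03 (edgeR adjusted p = 0.87), and without replicate 2 it turned to -0.03. The change in RPF relative to RNA, tested as the interaction of assay and treatment and termed TE here, was -0.15 (SE 0.075, edgeR adjusted p = 0.73), lower in 3 of 4 pairs, and -0.05 without replicate 4.

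The paralogs of Slc25a23 went their own ways, and none passed a threshold. Slc25a25 had 73.1, 86.0, 91.3 and 78.8 CPM in basal RNA and 64.4, 77.8, 84.8, 80.4 and 77.7 CPM after DHPG. Its RPF level was 56.0, 53.0, 49.6, 57.0 and 57.0 CPM at rest and 47.0, 47.9, 46.2, 58.6 and 55.3 CPM after DHPG. Replicate 4 alone was higher after DHPG in RPF (log2 fold change -0.09, SE 0.045, edgeR adjusted p = 0.45).

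Slc25a24 was near the lower limit of what these libraries measure. It had 1.47, 1.44, 2.31 and 2.26 CPM in basal RNA, from 7 to 16 counts, and 1.68, 2.68, 3.07, 2.39 and 2.35 CPM after DHPG. Its RPF level was 1.86, 2.74, 2.27, 2.57 and 2.46 CPM at rest and 2.85, 1.48, 2.43, 1.79 and 1.93 CPM after DHPG. RNA was higher in 4 of 4 pairs and RPF lower in 3 of 5, and the TE term was -0.60 (SE 0.34, edgeR adjusted p = 0.77), or -0.30 without replicate 2. Slc25a41 had 1, 1, 2 and 1 RNA counts at rest and 1, 3, 0, 0 and 0 after DHPG, and no RPF count.

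**Figure D3:**
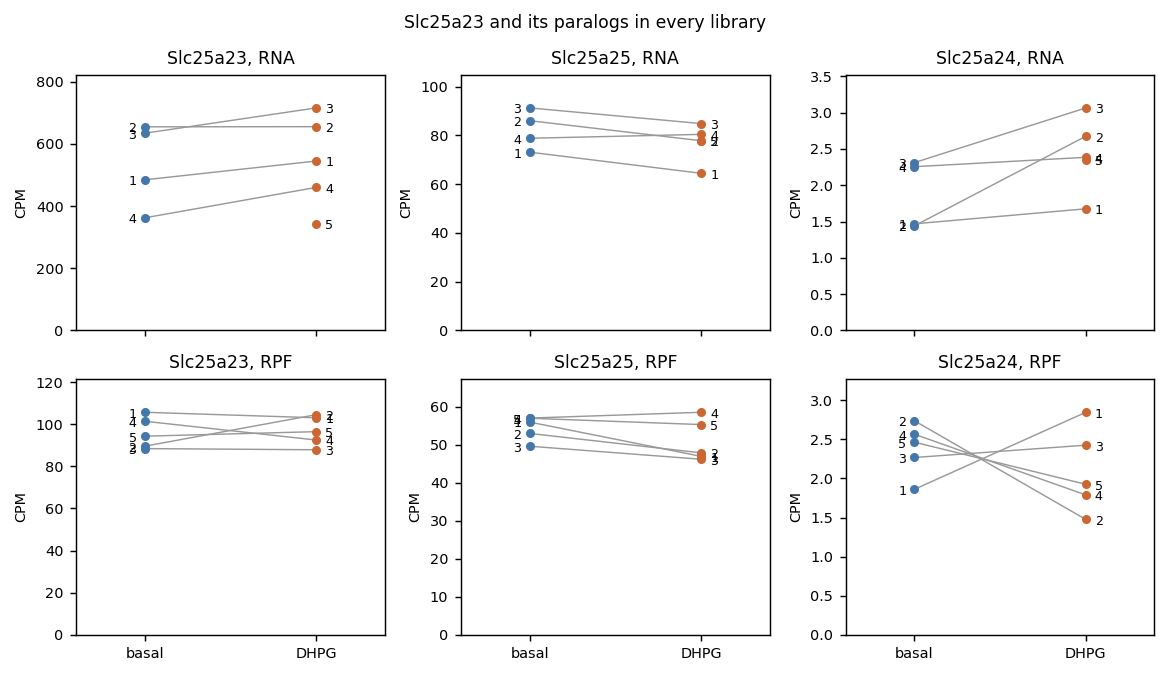
Each point is 1 library, labelled with its replicate number and with lines joining the basal (blue) and DHPG (orange) library of a replicate; the vertical axis is CPM from 0, for RNA above and RPF below. Slc25a23 is higher in all 4 RNA pairs while its RPF pairs cross, and Slc25a41, with at most 3 counts in a library, is not drawn.

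In RPF likewise no member passed the test. Of 39 tested members 0 had an adjusted p under 0.05 in edgeR, where the share called of all 13208 genes was 0.22%. At an unadjusted p under 0.05 there were 2, Slc25a22 and Slc25a25, beside 10.8% of all genes. DESeq2 with the block called 0 members but left 34 of the 39 with no adjusted p, and DESeq2 after ComBat called Slc25a22. Log2 fold changes ran from -0.33 to 0.33 with a median of 0.005, a median SE of 0.069 and 20 of 39 above 0, where 51.4% of all genes were above 0. All 5 pairs shared the sign in 2 members, beside 9.87% of all genes. In both assays the basal and DHPG ranges overlapped for every tested member, where they were separate for 0.518% of all genes in RNA and 0.394% in RPF.

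Slc25a22, the glutamate carrier, had the smallest p in RPF. Its basal RPF level was 282, 286, 281, 292 and 295 CPM in replicates 1 to 5, and after DHPG it was 304, 302, 293, 309 and 311 CPM. Each of the 5 pairs was higher after DHPG, and 1 DHPG library fell inside the basal range. Summed markers of astrocytes were likewise higher in 5 of 5 RPF pairs (5965, 6618, 7131, 6737 and 6707 CPM at rest, and 6112, 6739, 7488, 6876 and 7099 CPM after DHPG). So were those of interneurons (1239 to 1351 CPM at rest, 1318 to 1412 CPM after DHPG) and of microglia. Those of principal neurons, oligodendrocytes and thalamus were higher in 4 of 5 pairs, and those of endothelial cells and choroid plexus in 3 of 5. The part of these cell types in the Slc25a22 values was not tested. The log2 fold change was 0.08 (SE 0.030, edgeR adjusted p = 0.31), between 0.07 and 0.09 with each replicate left out. Its RNA had a log2 fold change of 0.10, which turned to -0.01 without replicate 4, with basal values of 176, 214, 219 and 129 CPM and 179, 197, 229, 170 and 167 CPM after DHPG.

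The other members with the smallest p values had changes within their spread. The NAD carrier Slc25a51 was lower in RPF in 5 of 5 pairs (26.2, 29.3, 25.1, 28.2 and 26.9 CPM at rest; 24.6, 26.1, 24.8, 27.0 and 24.3 CPM after DHPG), with a log2 fold change of -0.10 (edgeR adjusted p = 0.56). Slc25a34 had the highest RPF fold change of the family, 0.33 on the log2 scale, from 1.396, 1.89, 1.18, 2.22 and 1.51 CPM at rest to 1.42, 1.95, 2.26, 1.79 and 2.18 CPM after DHPG, each from 8 to 41 counts (edgeR adjusted p = 0.58), and without replicate 3 it was 0.09. Slc25a17, a peroxisomal carrier, had 42.4, 45.4, 45.8, 42.2 and 41.3 CPM in basal RPF and 44.5, 47.0, 50.6, 40.2 and 44.4 CPM after DHPG. The groups overlapped in each of these 3 members.

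In RNA, Slc25a5 was lower after DHPG in 4 of 4 pairs, from 358, 360, 414 and 359 CPM to 350, 354, 347 and 323 CPM, and DHPG replicate 5 had 374 CPM. Its log2 fold change was -0.12 (edgeR adjusted p = 0.67), between -0.15 and -0.07 with each replicate left out. Basal replicate 3, at 414 CPM, stood far from the other basal libraries of Slc25a5. Slc25a14 had 51.9, 49.4, 53.5 and 51.7 CPM at rest and 47.0, 55.8, 39.5, 42.2 and 44.5 CPM after DHPG, a log2 fold change of -0.18 (edgeR adjusted p = 0.64), or -0.10 without replicate 3. Slc25a53 had 7.02, 8.02, 8.94 and 6.48 CPM at rest and 7.22, 6.59, 7.49, 4.49 and 7.72 CPM after DHPG (log2 fold change -0.24). Slc25a16, which has been linked to coenzyme A, had 53.4, 44.9, 43.6 and 50.8 CPM at rest and 50.4, 49.4, 53.0, 56.4 and 48.4 CPM after DHPG (log2 fold change 0.12). Groups overlapped in all 4 of these members.

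The TE term passed the threshold for 0 of 38 members in edgeR, as for 0% of all 12691 genes. At an unadjusted p under 0.05 there was 1 member, Slc25a14, beside 6.77% of all genes, and limma on the log2 difference of RPF and RNA also called 0 members. The TE term of Slc25a14 was 0.20 (SE 0.098, edgeR adjusted p = 0.73), and 2 of 4 pairs were higher; without replicate 3 it was 0.07. Slc25a17 (0.18, or 0.08 without replicate 3) and the pyrimidine nucleotide carrier Slc25a33 (0.14) were higher in 2 of 4 pairs each. Slc25a33 had 75.5, 95.5, 101 and 70.9 CPM in basal RNA and 63.0, 90.8, 94.0, 72.5 and 81.9 CPM after DHPG. Its RPF level was 31.9, 35.9, 35.5, 34.6 and 36.1 CPM at rest and 33.5, 34.1, 35.7, 35.3 and 41.4 CPM after DHPG, so that DHPG replicate 5 stood above the rest. The members' median was -4.21e-05, with 19 of 38 above 0, beside 49.5% of all genes, and 4 members sharing the sign in all 4 pairs, beside 13.5%. Single values ran from -0.60 to 0.38.

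**Figure D4:**
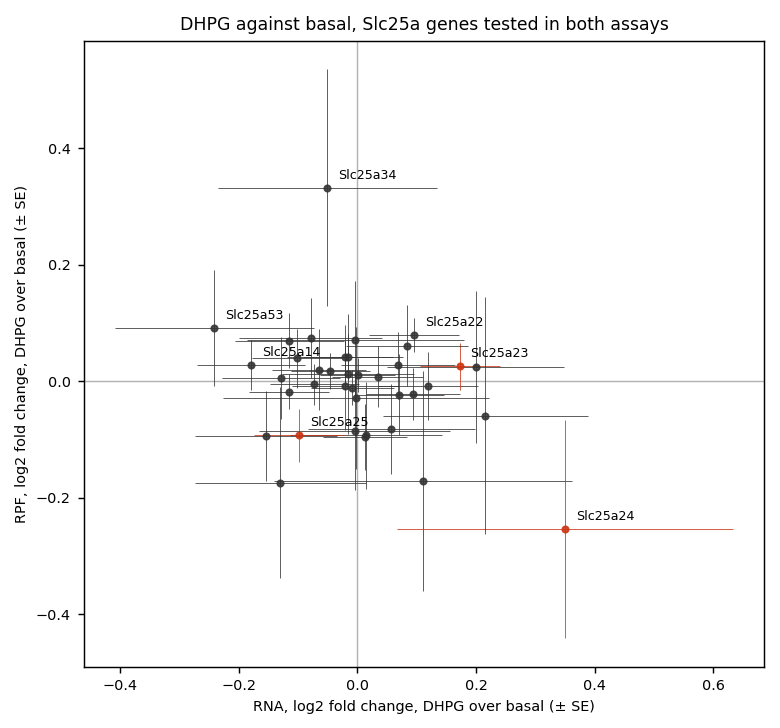
Each point is 1 of the 38 Slc25a genes tested in both assays, with the log2 fold change of DHPG over basal in RNA on the horizontal axis and in RPF on the vertical axis, and bars of 1 SE from edgeR. Points scatter around 0 on both axes, and Slc25a23 and its paralogs (red) lie at 0.17, 0.35 and -0.10 in RNA and at 0.03, -0.25 and -0.09 in RPF for Slc25a23, Slc25a24 and Slc25a25.

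No substrate group held a called member. In RNA, 3 of 3 uncoupling-protein-like carriers had values below 0 (median -0.15), as had 4 of 4 carriers with another or no assigned substrate (median -0.03), and 3 of 4 aspartate/glutamate and glutamate carriers had values above 0 (median 0.09), beside 52.1% of all genes. In RPF, 5 of 5 tested carriers of basic, branched and other amino acids and carnitine lay above 0, beside 51.4% of all genes, with a median of 0.02 and values from 0.005 to 0.07. Of these 5, Slc25a15, Slc25a29, Slc25a38 and Slc25a44 turned below 0 when a replicate was left out (lowest -0.10, -0.03, -0.005 and -0.03). The 3 tested ADP/ATP and phosphate carriers, the most abundant members, had RPF values from -0.02 to 0.01 with a median SE of 0.030.

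Other genes of mitochondrial transport gave 0 calls in each of the 3 tests as well. Of all genes, 8.02% in RNA, 10.8% in RPF and 6.77% in TE had an unadjusted p under 0.05, and 52.1%, 51.4% and 49.5% had values above 0, beside which the genes and counts of these lists stand. In the mitochondrial calcium uniporter and exchanger list (9 of 9 genes tested), Mcur1, a uniporter regulator, was at 0.15 in RPF. Among the pyruvate carrier and outer-membrane porins (5 of 5 tested), all 5 RNA values were below 0, with the porins Vdac2 at -0.17 and Vdac3 at -0.18, and all 5 TE values were above 0, with Vdac3 at 0.17. In the TIM22 list, the machinery that inserts carriers into the inner membrane (9 of 9 tested), 1 RNA value was above 0 and the median was -0.13, while 7 RPF values and 8 TE values were above 0. Its members at an unadjusted p under 0.05 were the small chaperones Timm13 (-0.23 in RNA, 0.28 in TE) and Timm8b (0.13 in RPF, 0.27 in TE), and Timm22, the channel-forming subunit (0.21 in TE).

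Mdh1, the cytosolic malate dehydrogenase of the malate-aspartate shuttle, was at -0.14 in RNA and 0.13 in TE, the 1 gene of 4 in its list with an unadjusted p under 0.05 (8.02% of all genes in RNA and 6.77% in TE). Of the SLC25 proteins with another symbol, 4 of 5 were tested, and Ucp2, an uncoupling protein, was at 0.32 in RNA (edgeR adjusted p = 0.54) and -0.32 in TE. RNA and TE values of a gene share the RNA libraries.

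The members whose differences between DHPG and basal were most like those of Slc25a23 were named by Pearson's correlation of log2 CPM over 18 paired libraries. Each replicate's mean was subtracted first, so the value compares the differences within 9 pairs. The nearest members were Slc25a22 at 0.69, Slc25a37 at 0.59, Slc25a16 at 0.58, Slc25a15 (an ornithine carrier) at 0.55 and Slc25a39 at 0.27. For both Slc25a23 and Slc25a22 the largest difference was in RNA replicate 4 (0.34 and 0.40 on the log2 scale), and its weight in the correlation was not tested. The paralogs of Slc25a23, Slc25a24 and Slc25a25, had -0.05 and -0.34. These points share libraries and pairs and are a description.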

How the data were processed

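The authors deposited 2 tables of expected counts, from RSEM, as whole numbers and not normalized, for 20436 genes on mm10 RefSeq, after adapter trimming by cutadapt, mapping with Bowtie2 and TopHat2, retention of uniquely mapped reads and removal of duplicates by molecular identifier. RPF reads were counted on coding sequences without the first and last 30 nt, RNA reads on whole transcripts, so the ratio of both depends on length. 12 columns matched no sample and were not used.

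Groups (4) came from the sample labels. edgeR 4.0.16 (R 4.3.3) fitted the counts after filterByExpr and TMM, with a quasi-likelihood F test and the replicate number as a block; p-values were adjusted by Benjamini-Hochberg across the whole table of genes that passed the filter. Thresholds were an adjusted p of 0.01 in RNA and 0.05 in RPF and TE. The TE model held 19 libraries and genes tested in both assays. DESeq2 1.42.0, ComBat (sva 3.50.0) and limma 3.58.1 were alternatives. Where counts enter a ratio, log2 CPM had a prior count of 2. DHPG RNA replicate 5, without a basal partner, adds nothing to the treatment term. Same-numbered samples deviated together (deviations from the group means correlated at 0.308 to 0.741 for the RNA pairs and 0.259 to 0.523 for the RPF pairs), and the numbers were taken to pair them. With the block, the edgeR p-values weigh a change against how far the differences within pairs vary over these pooled replicates.

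Lengths were those of the longest coding transcript of each gene in GENCODE M21, which matched 99.4% of genes and all 47 members. Sequences were read from GRCm38. Members and lists were chosen with earlier results of these data known. Members given in every library, in the assay concerned, were Slc25a23 and its paralogs, the 5 with the smallest p in each test, the 5 highest RPF levels and, at 1 CPM or more, the 3 highest and 3 lowest ratios. List genes were named at an unadjusted p under 0.05, except for a result that is not reported here, and the members nearest in pattern were the 5 with the highest correlation. Mcub and Timm29 stood in the tables under older symbols. The alternatives were another normalization, filter, prior count, length, threshold and test, no block, and each replicate left out. The statistical steps were tested on simulated data with log2 changes of 0.5 in 200 genes. Of the changed genes tested, 64.5% were recovered in RNA, 90.5% in RPF and 56.9% in TE. False calls were 5 of 134 in RNA, 10 of 191 in RPF and 14 of 126 in TE. Member changes in RNA and RPF were all smaller than 0.5. Recovery at smaller sizes was not tested, so 0 called members does not show that such changes were absent.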

Additional observations from a re-analysis of the deposited data

Results flagged for a closer look

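In 4 to 5 libraries of a group, 1 library stood far from the others in 6 of 76 groups of member values screened, and chance flags about 1 in 20. In basal RNA replicate 3, Slc25a5 was at 414 CPM against 358 to 359.9 CPM in the other libraries, and Slc25a36 was at 26.05 CPM against 36.2 to 38.2 CPM. In basal RPF replicate 2, Slc25a5 was at 429 CPM against 486 to 494 CPM. After DHPG, RPF levels stood apart for Slc25a3 in replicate 2 (475 CPM against 519 to 531 CPM), for Slc25a16 in replicate 1 (22.2 CPM against 26.4 to 27.9 CPM) and for Slc25a33 in replicate 5 (41.4 CPM against 33.5 to 35.7 CPM).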

How the results depend on the processing

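Without the replicate block, 0 members were called in RNA, RPF or TE, and Slc25a23 had log2 fold changes of 0.03 in RNA and 0.02 in RPF; the TE term of Slc25a22 turned from -0.02 to 0.0462. DESeq2 after ComBat called 1 member in RPF, Slc25a22 (log2 fold change 0.08, adjusted p = 0.0089), and left 27 of 39 without an adjusted p; the cause was not tested. By limma the TE term of Slc25a25 was -0.0159 against 0.003. With replicates left out in turn, Slc25a23 ranged from 0.11 to 0.23 in RNA, from -0.0328 to 0.0609 in RPF and from -0.26 to -0.05 in TE. The sign turned for 21 of 40 members in RNA, 21 of 39 in RPF and 15 of 38 in TE. Among these were, in RNA, Slc25a34 (-0.22 to 0.0332), Slc25a51 (-0.00747 to 0.0222) and Slc25a22 (-0.00708 to 0.16), in RPF Slc25a16 (-0.0614 to 0.0285), Slc25a5 (-0.0312 to 0.0052), Slc25a14 (-0.0268 to 0.0529), Slc25a53 (-0.0339 to 0.17) and Slc25a33 (-0.00445 to 0.0734), and in TE Slc25a22 (-0.0826 to 0.0858) and Slc25a25 (-0.00493 to 0.022). With replicates left out, 0 members were called in each test. Without division by length the members' median log2 ratio was -0.25 in place of -0.05. With median lengths over a gene's coding transcripts, some of them incomplete, the ratio of Slc25a23 was -2.84 in place of -1.95 and the members' median RPF level 27.9 in place of 19.8 CPM per kb. Another normalization, filter, threshold or prior count changed no call and turned no sign. Depth limits members such as Slc25a24, with 7 to 18 RNA counts in a library.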
